A study of Rattus norvegicus with 23 samples.

Results

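The comparison set femora of rats given semaglutide alone against femora of rats given PYY alone, with gene expression measured across all genes by bulk sequencing of polyadenylated RNA. Libraries were chosen by their titles: 5 carry sema without pyy (A238, A240, A241, A242 and A243) and 4 carry pyy with saline (A215, A216, A219 and A220), so 9 of the 23 libraries of the series entered. All 9 came from female Wistar rats of the MetOP group, in which metabolic osteoporosis was set up by high-fat feeding and L-NAME. The 5 semaglutide libraries are labelled MetOP-Sema. The 4 PYY libraries carry treatment labels that differ in their last number (MetOP-PYY3-36 in A215, a number higher by 1 at each further library), so a shared PYY3-36 treatment rests on the shared title. For context, 5 libraries of the combination (MetOP-Sema+PYY), 5 of MetOP-Saline and 4 of the Healthy control group are given where they touch a gene. Titles of all MetOP groups also hold lfd after hfd, and LN. Titles of the healthy controls hold standard in place of hfd and lfd, then saline, and oLN in place of LN. The labels leave lfd, LN and oLN unexplained. Doses, times and ages are not in the labels used here, all libraries share the batch label 1, and whether each library stands for its own animal is not stated. The p-values therefore measure the spread between these libraries, which may be technical in part.

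Semaglutide is a long-acting agonist at the receptor for GLP-1. PYY3-36, released from the gut after meals, acts chiefly on the neuropeptide Y receptor Y2. Both lower food intake, through different receptors. L-NAME blocks nitric oxide synthases and raises blood pressure. Bone is built by osteoblasts, which secrete type I collagen and mineralize it, and is resorbed by osteoclasts. The femur also holds marrow, blood vessels, fat and a fibrous sheath, and samples can carry attached muscle, and each of these has its own set of marker genes.

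Library totals ran from 20.5 to 29.7 M counts (M as in CPM, counts per M) with semaglutide and from 22.5 to 37.2 M with PYY. The 37 mitochondrially encoded genes took 61.37% ± 5.31 of the counts with semaglutide and 63.63% ± 7.82 with PYY (SD, n = 5 and 4; exact permutation test, 2-sided, p = 0.651), which left 6.12 to 16.1 M counts per library for all other genes. Skeletal muscle genes took 22.61% ± 4.54 of those remaining counts with semaglutide and 11.36% ± 6.31 with PYY. The difference of 11.25 percentage points had an exact 2-sided permutation p of 0.0317, or 0.127 after adjustment over the 4 makeup measures (n = 5 and 4; the smallest p the 126 splits allow is 0.00794). The range was 15.0 to 27.1% with semaglutide, against 2.7, 10.7, 15.3 and 16.7% with PYY in A216, A215, A219 and A220. Bone and marrow markers were present in every library, among them Col1a1, Ibsp and Hbb, with values below. The upper limit for a gene with 0 counts, set at 3 counts, is 0.0805 to 0.146 CPM of a library's total in these 9 libraries and covers counting error only.

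One PYY library, A220, resembled the semaglutide libraries. Correlations of log2 CPM over genes were 0.865 to 0.921 among PYY A215, A216 and A219. A220 was at 0.866 with A215 and 0.870 with A219, much as A216 was with them (0.865 and 0.872). The pair of A216 and A220 was lowest within PYY, at 0.773. Between A220 and the 5 semaglutide libraries the correlations were 0.874 to 0.931, against 0.849 to 0.937 within semaglutide. By correlation A220 thus lay closer to each of the 5 semaglutide libraries than to any other PYY library, narrowly so for A241 (0.874 against 0.870 with A219). A216 lay farthest from the semaglutide libraries, at 0.725 to 0.797. A220 was also the deepest of the 9 libraries, with 37.2 M counts. Nothing in the labels sets it aside, so it stayed in, and results that rest on it are given with and without it. A220 was the PYY library most like semaglutide, so leaving it out can by itself widen the difference and lower the p-values. Values without A220 therefore show dependence on that library and are no independent support.

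A single gene, the collagen receptor gene Ddr2, passed the test between the drug groups, and most genes next to it in rank were also lower with semaglutide. With edgeR's quasi-likelihood test over 15271 genes, fitted on all 23 libraries with 1 mean per group, 1 gene passed a Benjamini-Hochberg adjusted p of 0.05, which is 0.00655% of the genes tested. That gene was Ddr2, which was lower with semaglutide. At an unadjusted p under 0.05 stood 2575 genes (16.9%), of which 1517 (9.93%) were lower and 1058 (6.93%) higher with semaglutide. The median log2 fold change of all genes, semaglutide over PYY, was -0.06, and 53.3% of genes were below 0. Of the genes of smallest p, 24 of the first 25, 94 of the first 100 and 414 of the first 500 were lower with semaglutide. Of the first 25, whose adjusted p ran from 0.0014 to 0.0632, 11 were genes of connective tissue or basement membrane. The same fit called 0 genes in semaglutide over MetOP saline (1744 at an unadjusted p under 0.05) and 0 in PYY over MetOP saline (740), comparisons that share the saline libraries. DESeq2 called 487 genes in semaglutide over PYY, 415 lower and 72 higher, and limma voom called 1. At an unadjusted p under 0.05, DESeq2 had 1793 lower and 1144 higher and limma voom 1427 and 1426. In edgeR without A220 they were 1963 and 1959, so the excess of lower genes at that threshold depended on the fit. DESeq2 tested 15261 genes, of which 3840 were given no adjusted p, and its 415 lower calls are 2.72% of those tested. They held 14 of the 22 osteoblast, 13 of the 22 connective tissue and 10 of the 14 basement membrane genes tested.

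Ddr2 encodes discoidin domain receptor 2, a receptor tyrosine kinase of mesenchymal cells and osteoblasts whose ligand is fibrillar collagen. It lies at chr13:82195463-82317363 in the deposited annotation (mRatBN7.2). Its level was 5.21, 7.67, 5.14, 7.58 and 4.47 CPM with semaglutide (A238, A240, A241, A242 and A243), against 48.3, 29.2, 26.6 and 25.9 CPM with PYY (A215, A216, A219 and A220). Every semaglutide library was below every PYY library, and A220, which lay within or below the semaglutide range for Col6a1, Col3a1 and Fbn1 described next, was with the other PYY libraries here. The means were 6.01 ± 1.5 CPM with semaglutide and 32.5 ± 10.6 CPM with PYY (SD, n = 5 and 4). Ddr2 fell by 2.43 on the log2 scale (SE 0.32, edgeR adjusted p = 0.0014). Non-overlap of that direction was seen for 2.98% of all genes tested. Per length, Ddr2 averaged 0.866 ± 0.239 FPKM with semaglutide and 4.79 ± 1.55 FPKM with PYY in the authors' deposited table.

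The other groups place Ddr2 between these levels. The combination had 17.0, 13.2, 25.8, 8.76 and 15.9 CPM, MetOP saline 18.7, 17.5, 30.0, 15.6 and 14.7 CPM, and healthy controls 8.9, 3.34, 7.76 and 4.8 CPM. Semaglutide libraries thus lay below every combination and saline library and within the range of the healthy controls. PYY libraries lay above every combination library, but narrowly, with 25.9 CPM in PYY A220 against 25.8 CPM in combination A253. The PYY libraries overlapped with the highest saline value. None of the related contrasts passed: semaglutide over saline was -1.68 (SE 0.30, edgeR adjusted p = 0.0913), PYY over saline 0.75 (SE 0.31, adjusted p = 0.941), the combination over semaglutide 1.42 (SE 0.30, adjusted p = 0.703) and the combination over PYY -1.01 (SE 0.31, adjusted p = 0.658). Ddr2 was called in 18 of 18 other fits, with log2 fold changes between -2.59 and -2.19 and adjusted p between 3.14e-09 and 0.0332. They include the fit without A220 (-2.53, adjusted p = 0.00137).

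**Figure D1:**
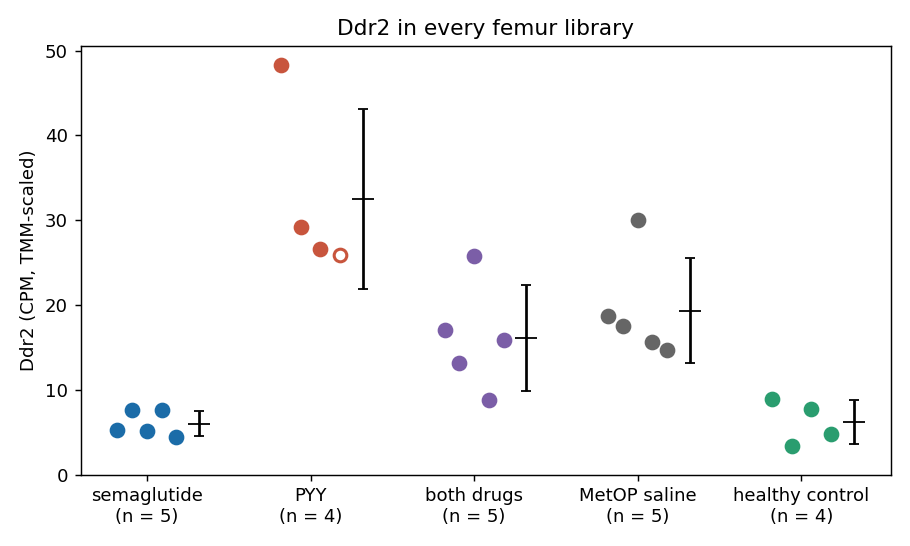
Ddr2 in every femur library, in TMM-scaled CPM on a linear axis, by group. Points are libraries (open circle, PYY A220), horizontal marks are means and bars are 1 SD. The 5 semaglutide libraries lie between 4.47 and 7.67 CPM, below all 4 PYY libraries, which lie between 25.9 and 48.3 CPM.

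Genes of fibrous connective tissue had lower means with semaglutide throughout their list, without passing the test over all genes other than Ddr2. All 22 tested members of the fibroblast and connective tissue list had a log2 fold change below 0, with a median of -2.41 against -0.06 over all genes. Of these 22, 19 were at an unadjusted p under 0.05 in that direction (9.93% of all genes). For this and each further list, such counts stand beside 9.93% of all genes for lower and 6.93% for higher. In bulk RNA, fewer cells of a type and less RNA per cell cannot be told apart. The level of the list, the mean log2 CPM of its members, was 2.43 to 3.13 in the 5 semaglutide libraries. It was 4.52 to 6.15 in PYY A215, A216 and A219 and 2.43 in A220, so with A220 the groups overlap, and without it they do not.

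Collagen VI, the beaded-filament collagen that surrounds fibroblasts, muscle fibres and vessels, is made of 3 chains encoded by Col6a1, Col6a2 and Col6a3. Col6a1 (chr20:11905957-11924597) had 19.7, 21.4, 16.8, 24.6 and 14.3 CPM with semaglutide, against 298, 247, 100 and 18.7 CPM with PYY. The first 3 PYY libraries were several times above every semaglutide library, and A220 was inside the semaglutide range. The fold change was -3.10 on the log2 scale (SE 0.58, edgeR adjusted p = 0.0632), and -3.47 without A220 (adjusted p = 0.00137). Col6a2 and Col6a3 had the same pattern, with -2.90 (SE 0.60) and -3.03 (SE 0.61) and an adjusted p of 0.0632 each. Per length, the deposited FPKM of Col6a1 averaged 4.05 with semaglutide and 35.4 with PYY, against 15.4 in MetOP saline.

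Fbn1 encodes fibrillin-1, the backbone of elastic microfibrils. Its level was 7.44, 10.9, 8.22, 8.07 and 4.84 CPM with semaglutide, against 225.8, 31.0, 48.2 and 9.13 CPM with PYY. PYY A215 was far above the other PYY libraries, and A220 again lay within the semaglutide range. The log2 fold change was -3.32 (SE 0.59, edgeR adjusted p = 0.0632), -3.69 without A220 (adjusted p = 0.00137) and -1.98 without A215. MetOP saline averaged 10.5 ± 2.38 CPM (SD, n = 5), near semaglutide at 7.89 ± 2.15 CPM (n = 5), so Fbn1 was 2.91 above saline on the log2 scale with PYY and -0.41 with semaglutide.

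Col3a1, the fibrillar collagen of loose connective tissue and vessel walls, had 84.2, 53.0, 46.5, 117 and 45.0 CPM with semaglutide and 1600, 696, 393 and 30.4 CPM with PYY. A220 was the lowest of all 9 libraries for this gene. The log2 fold change was -3.30 (SE 0.71, edgeR adjusted p = 0.0632). Of the other genes of smallest p, Zfp521, a zinc finger cofactor of mesenchymal progenitors, was at -2.19 (SE 0.42). Emp1, an epithelial membrane protein family gene, was at -2.48 (SE 0.50), and Ptgfrn, a tetraspanin partner, at -1.80 (SE 0.34), each with an adjusted p of 0.0632. Ptgfrn was lower in all 5 semaglutide libraries (2.59 to 6.97 CPM) than in all 4 PYY libraries (8.24 to 34.9 CPM).

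The tendon and periosteum list had 10 of 11 tested members below 0, a median of -2.29, and 7 at an unadjusted p under 0.05. Its 2 members of smallest p were Aspn and Ogn, small leucine-rich proteoglycans named asporin and osteoglycin. Aspn was at -2.70 (SE 0.67, edgeR adjusted p = 0.0813), with 5.86 to 21.6 CPM with semaglutide and 214, 34.7, 32.3 and 8.02 CPM with PYY. Ogn was at -1.58 (SE 0.40, adjusted p = 0.0813). The median of this list was carried in large part by PYY A215 and was -0.57 without that library.

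Basement membranes are sheets of collagen IV, laminins, nidogens and perlecan under endothelium and around muscle fibres and fat cells. Of 14 tested members, 13 were below 0, with a median of -1.57; 11 were at an unadjusted p under 0.05 in that direction and 1 in the other. Col4a1 and Col4a2, which encode the chains of the most widespread collagen IV, are transcribed in opposite directions from neighbouring starts. The bases between the 2 starts are shown because both genes share them. In RefSeq (GRCr8) they are chr16:84885521-84885596, read here on the strand of Col4a1, with capitals marking the match to GGGCGG on the opposite strand:
Col4a1 and Col4a2, between starts: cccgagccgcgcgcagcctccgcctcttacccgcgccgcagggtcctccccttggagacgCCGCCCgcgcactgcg
On either strand these 76 bases hold GGGCGG (the GC box) 1 time and neither TATAAA nor CCAAT. Among the 76 bases before 33469 RefSeq starts, 18.1% hold GGGCGG, 4.61% TATAAA and 13% CCAAT, also on either strand. A match describes the letters and not a site that was measured.

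The 2 genes on either side of that stretch had the same order of groups. Col4a1 had 42.0, 47.0, 25.6, 47.4 and 36.7 CPM with semaglutide, against 237, 187, 136 and 51.6 CPM with PYY. Col4a2 had 18.4, 28.0, 12.1, 23.5 and 27.9 CPM with semaglutide, against 124, 85.9, 76.7 and 29.2 CPM with PYY. For both genes every semaglutide library was below every PYY library, with A220 nearest to semaglutide. The log2 fold changes were -1.95 (SE 0.39) and -1.84 (SE 0.38), each with an edgeR adjusted p of 0.0632, and without A220 -2.23 (adjusted p = 0.00289) and -2.12 (adjusted p = 0.00388). In the deposited annotation the 2 genes overlap by 307 bases, and because the strand setting of the libraries is not stated, reads from that overlap cannot be assigned to either.

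Lama4, the laminin chain of vessel walls, was at -1.88 (SE 0.40), Nid1, which links laminin to collagen IV, at -1.83 (SE 0.39) and Col15a1, a collagen of the outer face of basement membranes, at -2.11 (SE 0.44), each with an edgeR adjusted p of 0.0632. For each of the 3 genes, A220 lay inside the semaglutide range, at 11.1, 18.3 and 9.55 CPM. The other 3 PYY libraries were above all semaglutide libraries, from 35.7 CPM for Lama4, 47.6 CPM for Nid1 and 39.8 CPM for Col15a1.

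**Figure D2:**
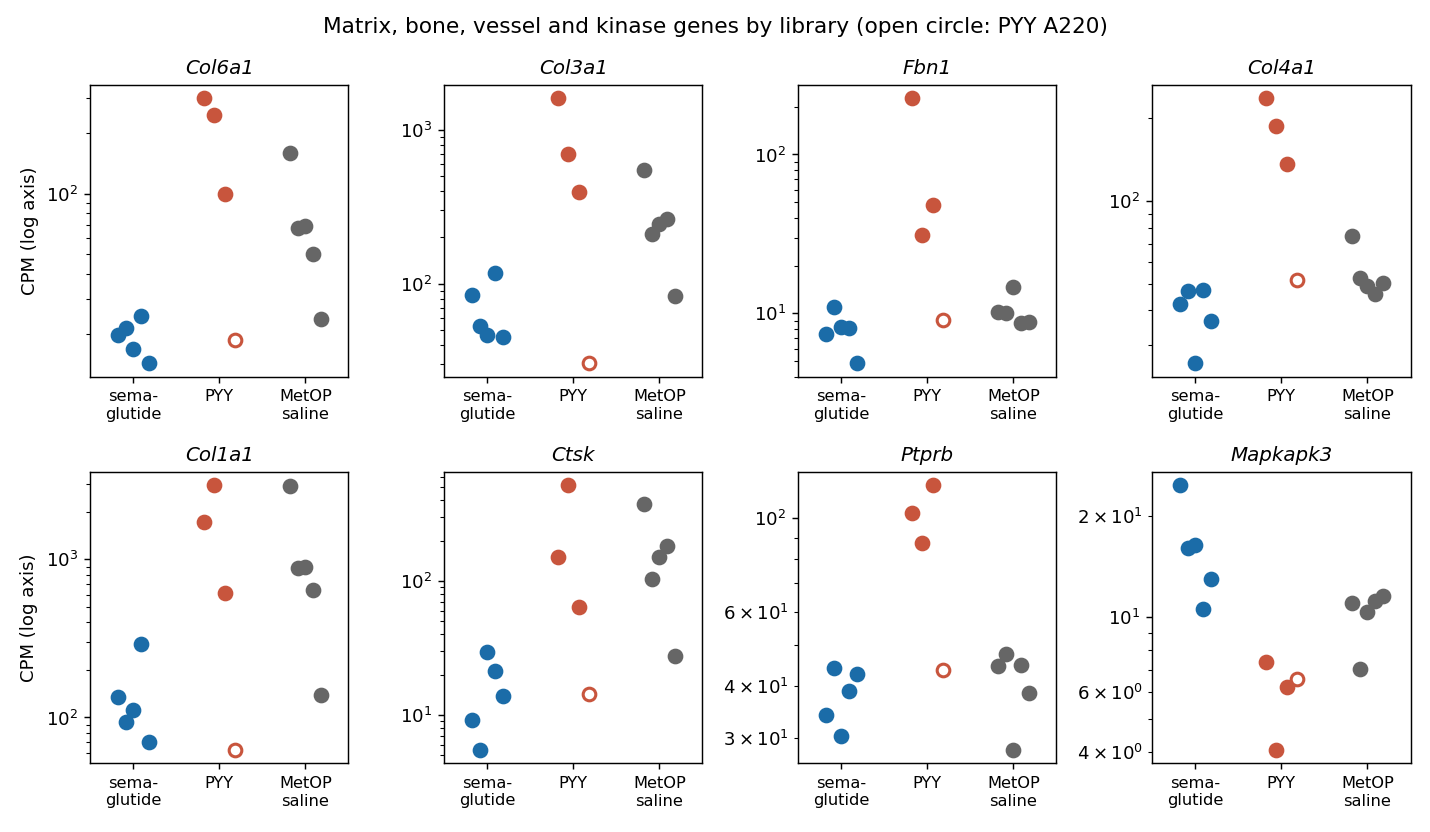
Matrix, bone, vessel and kinase genes by library, in TMM-scaled CPM on log axes, for semaglutide, PYY and MetOP saline. Points are libraries and the open circle is PYY A220. For Col6a1, Col3a1, Fbn1, Col1a1, Ctsk and Ptprb the open circle lies within or below the range of semaglutide, and for Col4a1 and Mapkapk3 on the PYY side of every semaglutide library.

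Bone-forming genes were lower on average with semaglutide, with wide spread among PYY libraries. Of 22 tested members of the osteoblast and bone matrix list, 21 were below 0, with a median of -2.58, and 20 were at an unadjusted p under 0.05 in that direction; none passed after adjustment over all genes. Col1a1, the main chain of bone collagen, had 135, 93.6, 111, 293 and 70.3 CPM with semaglutide, against 1730, 2960, 610 and 62.1 CPM with PYY. A220 was the lowest of all 9 libraries and the other 3 were above all semaglutide libraries. The log2 fold change was -3.25 (SE 0.91, edgeR adjusted p = 0.107), and -3.65 without A220 (adjusted p = 0.0176). Ibsp, bone sialoprotein, was at -3.10 (SE 0.86, adjusted p = 0.107), Alpl, the alkaline phosphatase of mineralization, at -2.51 (SE 0.72, adjusted p = 0.121), and Bglap, osteocalcin, at -2.03 (SE 0.67, adjusted p = 0.169). PYY A216 was highest for Ibsp, at 478 CPM against 17 to 72 CPM in the other PYY libraries. Without A216, Ibsp was at -1.23, Alpl at -1.28, Col1a1 at -2.51 and the median of the list at -1.67. Col5a2 and Col5a1, which set the diameter of collagen fibrils, were at -2.59 (SE 0.59, adjusted p = 0.0713) and -2.85 (SE 0.73, adjusted p = 0.0879).

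Genes of embedded osteocytes differed less. Of 13 tested members 10 were below 0 and the median was -0.93 (-0.62 without PYY A216). At an unadjusted p under 0.05 stood 2, both lower, where 9.93% of all genes stood in that direction. Those 2 were Enpp1, which makes the mineralization inhibitor pyrophosphate, at -1.76 (SE 0.48, edgeR adjusted p = 0.101), and Dmp1, a matrix phosphoprotein, at -1.47 (SE 0.54, adjusted p = 0.204). Sost, the osteocyte Wnt inhibitor sclerostin, had 0.509 to 2.82 CPM with semaglutide and 0.989 to 3.31 CPM with PYY, with overlapping groups (-0.49, SE 1.02, adjusted p = 0.86). The error of Sost leaves a difference of several fold in either direction undetectable here.

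Osteoclast genes had a lower mean level with semaglutide, but the groups overlapped, with a list level of 2.42 in semaglutide A241 and 0.707 to 4.2 over the PYY libraries. Of 20 tested members 18 were below 0, with a median of -1.15, and 6 were at an unadjusted p under 0.05. The median was -0.21 without PYY A216 and -2.08 without semaglutide A241. Ctsk, the collagen-digesting protease cathepsin K, had 9.16, 5.45, 29.3, 21.3 and 13.9 CPM with semaglutide and 151, 521, 64.3 and 14.4 CPM with PYY. The 3 PYY libraries other than A220 were above all semaglutide libraries, and A216 was highest. Ctsk was at -3.57 (SE 0.86, edgeR adjusted p = 0.0778) and Acp5, the osteoclast acid phosphatase, at -3.40 (SE 0.90, adjusted p = 0.0969). Without A216 they were at -2.28 and -2.09.

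Among the signals that set osteoclast numbers, all 9 tested genes were below 0, with a median of -1.68, and 8 were at an unadjusted p under 0.05. Csf1, the macrophage growth factor that osteoclast precursors need, was at -1.63 (SE 0.52, edgeR adjusted p = 0.154). Tnfrsf11b, which encodes the decoy receptor OPG, had 0.278 to 1.37 CPM with semaglutide and 9.34, 28.7, 2.25 and 0.178 CPM with PYY (-3.72, SE 1.27, adjusted p = 0.178). Tnfsf11, which encodes its ligand RANKL, was at -1.6 (SE 1.42, adjusted p = 0.61), with 0 counts in semaglutide A238 and in PYY A220. The genes for ligand and decoy thus had lower mean levels together, and neither passed.

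Cartilage genes had the lowest median of any list, -5.31, with 17 of 18 tested members below 0 and 15 at an unadjusted p under 0.05. This rested on PYY A216, without which the median was -1.14. Col2a1, the collagen of cartilage, had 6.18, 30.1, 46.1, 2.73 and 0.401 CPM with semaglutide and 1.69, 3870, 80.2 and 6.93 CPM with PYY, so the groups overlapped fully apart from A216 and A219 (-5.85, SE 2.46, edgeR adjusted p = 0.246). Acan, the large cartilage proteoglycan, reached 351 CPM in A216 and at most 12.1 CPM in the other 8 libraries (-5.94, SE 2.01, adjusted p = 0.179). Col11a2, a minor cartilage collagen, and Comp, a cartilage and tendon matrix protein, were at -4.46 (SE 1.30, adjusted p = 0.124) and -5.18 (SE 1.60, adjusted p = 0.148).

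Endothelial genes had lower means with semaglutide. Of 21 tested members, 20 were below 0, with a median of -1.02, and 17 were at an unadjusted p under 0.05. Ptprb, the phosphatase VE-PTP of vessel walls, had 34.1, 44.0, 30.4, 38.9 and 42.6 CPM with semaglutide and 103, 87.4, 120 and 43.6 CPM with PYY. A220 lay inside the semaglutide range and the other PYY libraries were well above it (-1.22, SE 0.30, edgeR adjusted p = 0.0778; without A220 -1.45, adjusted p = 0.00908). Clec14a, an endothelial lectin, was at -1.32 (SE 0.33, adjusted p = 0.0813). Semaglutide was near MetOP saline for this list, with a median of -0.14, whereas PYY over saline had a median of 0.84; both share the saline libraries.

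Pericyte and smooth muscle genes were mixed, with 10 of 14 tested members below 0, a median of -1.18, and 8 lower and 1 higher at an unadjusted p under 0.05. Rgs5, a marker of pericytes, had 15.9, 20.2, 10.7, 29.1 and 9.53 CPM with semaglutide and 148, 141, 102 and 43.4 CPM with PYY, with no overlap (-2.67, SE 0.65, edgeR adjusted p = 0.0778). Pdgfrb, the PDGF receptor of pericytes, was at -1.77 (SE 0.43, adjusted p = 0.0778). Rgs5 is thus among the genes for which A220 stayed above every semaglutide library.

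Because L-NAME acts on nitric oxide synthases, genes of that pathway were listed. Of 18 tested members 12 were below 0 (53.3% of all genes were), with a median of -0.35 (-0.53 without semaglutide A241). At an unadjusted p under 0.05 stood 4, all lower, where 9.93% of all genes stood in that direction. Nos3, the endothelial synthase, had 8.73, 9.49, 4.8, 8.14 and 9.62 CPM with semaglutide and 15.6, 11.5, 16.9 and 10.2 CPM with PYY (-0.73, SE 0.40, edgeR adjusted p = 0.361). All semaglutide libraries were below all PYY libraries for Nos3, by a margin that was small against its error. Gucy1a1, a subunit of the nitric oxide receptor guanylate cyclase, was at -1.46 (SE 0.44, adjusted p = 0.134), and Cav1, the caveolin that binds the endothelial synthase, at -0.80 (SE 0.30, adjusted p = 0.205).

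In the endothelin and renin-angiotensin list 12 of 13 tested genes were below 0, with a median of -1.38, and 6 were at an unadjusted p under 0.05. Ednrb, an endothelin receptor, was at -2.47 (SE 0.86, edgeR adjusted p = 0.184) and Ace, the angiotensin-converting enzyme, at -1.08 (SE 0.38, adjusted p = 0.186). The VEGF and hypoxia list was split, with 9 of 16 tested genes below 0, a median of -0.26 (0.06 without PYY A219 and -0.51 without A220), and 6 lower and 4 higher at an unadjusted p under 0.05. Hif1a, the oxygen-sensitive transcription factor subunit, had 9.28, 19.4, 10.2, 19.7 and 14.7 CPM with semaglutide and 45.4, 53.9, 32.5 and 27.3 CPM with PYY. These did not overlap (-1.44, SE 0.32, adjusted p = 0.071). Ndrg1, a hypoxia-induced gene, was at -1.48 (SE 0.40, adjusted p = 0.0973).

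The receptors addressed by the drugs were at or near the limit of detection. Glp1r and Npy5r had 0 counts in all 23 libraries, which allows up to 0.0805 to 0.146 CPM in the 9 libraries compared. Npy2r, which encodes the Y2 receptor, had 7 counts in PYY A216 and 0 elsewhere, and Npy4r had 15 counts in 1 saline library and 0 elsewhere. Npy1r, the Y1 receptor gene, had 2.04, 5.37, 3.16, 5.44 and 3.98 CPM with semaglutide and 17.6, 1.36, 17.1 and 4.52 CPM with PYY (-1.34, SE 0.59, edgeR adjusted p = 0.258). PYY A215 and A219 were above all others, and A216 was the lowest of the 9. Lepr, the leptin receptor gene, was at -1.40 (SE 0.60, adjusted p = 0.247). Of 8 tested genes of this receptor list 5 were below 0, with a median of -0.58 (0.02 without PYY A216). At an unadjusted p under 0.05 stood 2, both lower, where 9.93% of all genes stood in that direction.

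Signalling lists also had medians below that of all genes. Of 23 tested Wnt genes 20 were below 0, with a median of -1.03 (-0.59 without PYY A216), and 6 were at an unadjusted p under 0.05. Fzd6, a Wnt receptor, had 3.87 to 8.37 CPM with semaglutide and 23.2, 18.2, 25.7 and 9.78 CPM with PYY, with no overlap (-1.69, SE 0.37, edgeR adjusted p = 0.0639). Wif1, a secreted Wnt inhibitor, was at -2.69 (SE 0.77, adjusted p = 0.115). Of 23 BMP and TGF-beta genes 22 were below 0, with a median of -0.62 and 7 at an unadjusted p under 0.05; the receptor gene Tgfbr2 was at -1.57 (SE 0.43, adjusted p = 0.104) and the BMP target Id3 at -1.38 (SE 0.44, adjusted p = 0.152). Of 19 IGF and insulin genes 14 were below 0, with a median of -0.20 (-0.64 without semaglutide A241), and 7 were lower and 2 higher at an unadjusted p under 0.05. Igfbp7 and Igfbp3, which encode secreted IGF-binding proteins, were at -1.74 (SE 0.40, adjusted p = 0.071) and -1.53 (SE 0.42, adjusted p = 0.0984).

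**Figure D3:**
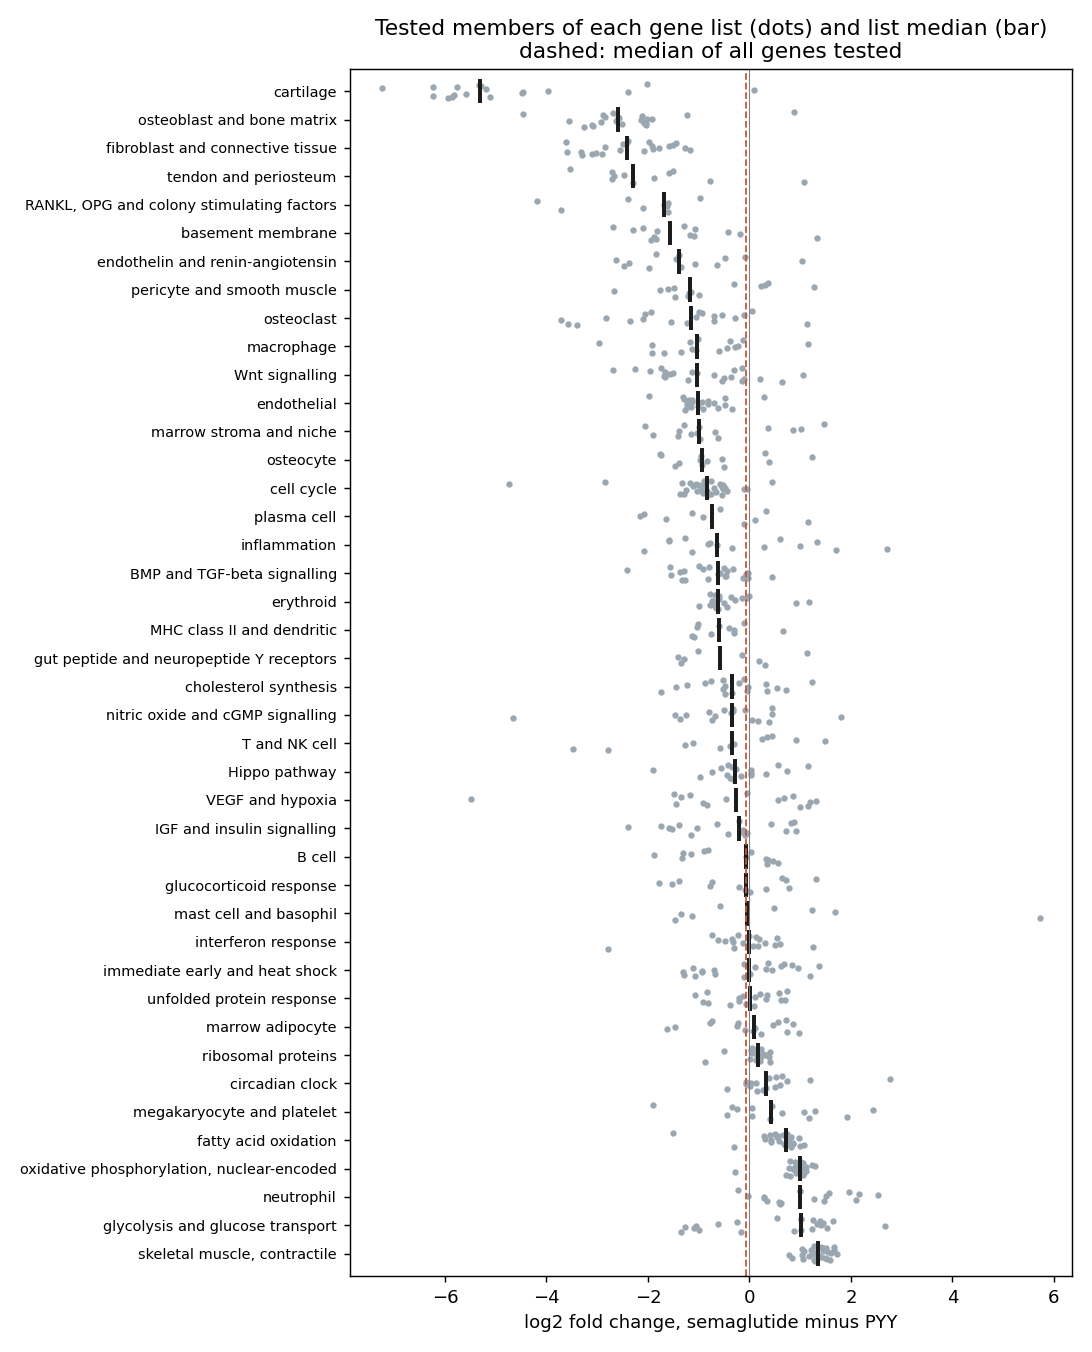
Log2 fold change, semaglutide minus PYY, of the tested members (dots) of 42 gene lists, with the median of each list (bar) and of all genes tested (dashed line, -0.06). Cartilage has the lowest median, -5.31, and contractile skeletal muscle the highest, 1.35.

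Muscle and energy genes had higher means with semaglutide, beside the larger mean muscle share of those libraries. All 29 tested contractile muscle genes were above 0 (46.7% of all genes were), with a median of 1.35, and 3 were at an unadjusted p under 0.05 (6.93% of all genes). Acta1, skeletal muscle actin, had 11400, 12500, 9310, 5700 and 12500 CPM with semaglutide and 2710, 406, 4910 and 8680 CPM with PYY, with overlap through A242 and A220 (1.30, SE 0.77, edgeR adjusted p = 0.403). Ckm, muscle creatine kinase, was at 1.52 (SE 0.74, adjusted p = 0.299), Casq1, the calcium store protein, at 1.5 (SE 0.68, adjusted p = 0.267), and Ryr1, its release channel, at 1.40 (SE 0.65, adjusted p = 0.275). The level of the muscle list was 9.13 to 11.2 with semaglutide and 6.22 to 9.43 with PYY.

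Of 37 nuclear-encoded oxidative phosphorylation genes 36 were above 0, with a median of 0.99, and 13 were at an unadjusted p under 0.05. Uqcrh, a subunit of complex III, had 157, 163, 149, 109 and 154 CPM with semaglutide and 64.0, 35.4, 69.4 and 123 CPM with PYY (1.01, SE 0.35, edgeR adjusted p = 0.182). Cox5a, a subunit of cytochrome c oxidase, was at 1.24 (SE 0.45, adjusted p = 0.195). Of 28 fatty acid oxidation genes 26 were above 0, with a median of 0.72 (0.39 without PYY A216 and 1.65 without A220), and 0 were at an unadjusted p under 0.05. Acadm and Hadha, enzymes of mitochondrial beta-oxidation, were at 1.07 (SE 0.58, adjusted p = 0.359) and 0.85 (SE 0.47, adjusted p = 0.368), and A220 had the highest fatty acid oxidation level of the 9 libraries, at 5.85. Of 22 glycolysis and glucose transport genes 14 were above 0, with a median of 1.01 (0.66 without PYY A216), 8 higher and 3 lower at an unadjusted p under 0.05. Hk2, the muscle and fat hexokinase, was at 1.01 (SE 0.40, adjusted p = 0.222) and Pfkp, the platelet phosphofructokinase, at -1.27 (SE 0.49, adjusted p = 0.211). With the muscle level as a covariate the medians were -0.24 for contractile muscle, -0.03 for oxidative phosphorylation and -0.15 for glycolysis.

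Bone and cartilage lists also changed in value once the muscle level was taken into account. With it as a covariate the median was -1.03 for osteoblast and bone matrix genes, 0.07 for osteoclast genes and -0.54 for cartilage genes. Ddr2 was the single gene called in that fit, and 897 genes were at an unadjusted p under 0.05, 590 lower and 307 higher. Whether muscle carried in the samples plays a part in the differences between the groups was not tested.

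**Figure D4:**
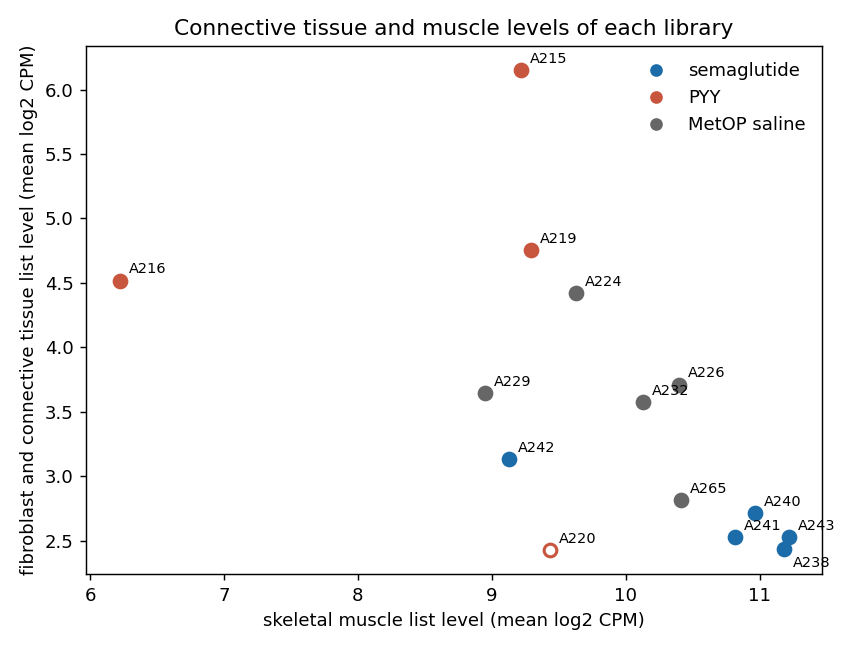
Level of the fibroblast and connective tissue list against the level of the contractile skeletal muscle list, each as mean log2 CPM of its tested members, for each semaglutide, PYY and MetOP saline library. Semaglutide libraries have fibroblast levels of 2.43 to 3.13 and PYY A220 (open circle) has 2.43, while the other 3 PYY libraries have at least 4.52.

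Marrow blood cell genes showed no gene that passed. Of 22 erythroid genes 20 were below 0, with a median of -0.62 (-0.06 without PYY A219 and -1.19 without semaglutide A241). At an unadjusted p under 0.05 stood 2, both higher, where 6.93% of all genes stood in that direction. They were Sptb, erythroid spectrin, at 0.93 (SE 0.32, edgeR adjusted p = 0.184), and Ank1, ankyrin 1, at 1.18 (SE 0.46, adjusted p = 0.22). Both genes are also transcribed in skeletal muscle. Hbb, beta-globin, was at -0.63 (SE 0.76, adjusted p = 0.734). Of 18 neutrophil genes 16 were above 0, with a median of 0.99. At an unadjusted p under 0.05 stood 1 of them, which was higher, a share near the 6.93% of all genes. Without semaglutide A241 the median was -0.32, so its direction rested on that library. Csf3r, the neutrophil growth factor receptor, had 0.744, 2.35, 23.2, 2.77 and 0.678 CPM with semaglutide and 1.08, 1.64, 1.12 and 0.297 CPM with PYY, so its value of 2.53 (SE 1.19, adjusted p = 0.284) rested on A241 and was 0.67 without it. Padi4, a neutrophil enzyme that modifies histones, was at 1.97 (SE 1.02, adjusted p = 0.331), and 0.31 without A241. Of 16 macrophage genes 15 were below 0, with a median of -1.04 (-0.55 without PYY A216); Cd14 and Cd68, monocyte and macrophage surface and lysosome proteins, were at -1.92 (SE 0.62, adjusted p = 0.155) and -1.93 (SE 0.73, adjusted p = 0.209).

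Of 35 cell cycle genes 34 were below 0, with a median of -0.83 (-1.32 without semaglutide A241 and -0.55 without PYY A216). At an unadjusted p under 0.05 in that direction stood 3 of the 35, a share near the 9.93% of all genes. Cenpm, a centromere protein gene, had 1 count in the 5 semaglutide libraries together, and 4 to 18 counts in each of the 4 PYY libraries, 42 in all. The ratio of semaglutide over PYY was 0.0256 with a 95% counting interval of 0.000633 to 0.151, which leaves out the spread between libraries; the edgeR adjusted p was 0.0885. Cdk2, a cell cycle kinase, was at -0.93 (SE 0.42, adjusted p = 0.267). Of 16 marrow adipocyte genes 7 were below 0 and 9 above, with a median of 0.10 (-0.14 without semaglutide A243). Pparg, the master regulator of fat cells, had 0.822 to 1.82 CPM with semaglutide and 2.16 to 5.23 CPM with PYY (-1.47, SE 0.50, adjusted p = 0.177), and Lipe, hormone-sensitive lipase, was at -0.73 (SE 0.39, adjusted p = 0.337). Adipoq, adiponectin, was at 0.22 (SE 0.71, adjusted p = 0.917).

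The genes of smallest p that were higher with semaglutide encode intracellular regulators, and none passed. Mapkapk3, a stress kinase downstream of p38, had 24.7, 16.1, 16.4, 10.6 and 13.0 CPM with semaglutide and 7.36, 4.04, 6.24 and 6.56 CPM with PYY. All semaglutide libraries were above all PYY libraries, A220 included, and MetOP saline averaged 10.2 ± 1.85 CPM (SD, n = 5), between the 2. The log2 fold change was 1.41 (SE 0.27, edgeR adjusted p = 0.0632). Mbd3, a subunit of the NuRD chromatin complex, had 29.7, 29.4, 28.4, 28.8 and 36.9 CPM with semaglutide and 12.8, 11.9, 15.6 and 14.6 CPM with PYY (1.16, SE 0.28, adjusted p = 0.0777). Yeats4, a reader of acetylated histones, was at 1.07 (SE 0.26, adjusted p = 0.0778), and Stk40, a kinase-like gene, at 0.86 (SE 0.21, adjusted p = 0.0786). Rassf3, a Ras-association family gene, was at 0.95 (SE 0.24, adjusted p = 0.0844), and Cop1, a ubiquitin ligase, at 1.00 (SE 0.26, adjusted p = 0.0879). For these 6 genes the groups did not overlap, as for 2.89% of all genes tested.

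Set beside MetOP saline, the 2 drug groups lay on different sides for some lists and on the same side for others. The saline libraries are shared by both contrasts, so the values are given side by side only. For connective tissue, the median was -0.91 for semaglutide over saline and 1.14 for PYY over saline. For basement membrane it was -0.30 and 1.22, for pericytes and smooth muscle 0.06 and 0.90, and for the endothelin and renin-angiotensin genes 0.03 and 1.00. By these medians the PYY group was the one farther from saline, but A220 differed from the other PYY libraries. Connective tissue levels were 6.15, 4.52, 4.76 and 2.43 in PYY A215, A216, A219 and A220. They were 2.81 to 4.42 with saline and 2.43 to 3.13 with semaglutide. A220 was thus below every saline library for connective tissue. It was within the saline range for basement membrane and for the endothelin and renin-angiotensin genes. For osteoblast genes the medians were -2.09 and 0.22, for osteoclast genes -1.39 and -0.06 and for cartilage genes -5.39 and -0.11. By these medians the semaglutide group was farther from saline, but the PYY libraries were spread widely. Cartilage levels were 0.737, 6.45, 2.17 and -0.705 in PYY A215, A216, A219 and A220, and 0.29 to 6.26 with saline. Osteoclast levels were 2.41, 4.2, 1.87 and 0.707 in the same PYY libraries, and 1.46 to 3.98 with saline. For contractile muscle the medians were 0.91 and -0.37. No gene passed in either contrast.

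The number of genes called depended on 1 library. Without A220, edgeR called 1021 of 15717 genes (6.5%), 587 lower (3.73%) and 434 higher (2.76%) with semaglutide, against 1 gene with all 23 libraries. Because A220 was the PYY library most like semaglutide, leaving it out can by itself raise the number of calls. Each of the other 8 fits with 1 library left out called 1 to 3 genes. Among the lists, those without A220 that had the most called members were connective tissue (14 of 22, all lower), osteoblast and bone matrix (13 of 22, all lower), oxidative phosphorylation (13 of 37, all higher), basement membrane (10 of 14) and endothelium (10 of 21), the last 2 also lower throughout. Contractile muscle and fatty acid oxidation had 7 called members each, all higher. Those of contractile muscle were Actn2, Myh7, Myl2, Myl3, Tnnt1, Tnni1 and Tnnc1. Others of that list, such as Acta1, Ckm and Myh4, were not called (edgeR adjusted p = 0.152, 0.235 and 0.587 without A220).

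Of the 5 higher genes of smallest p without A220, A220 lay with the other PYY libraries for Mapkapk3, at 6.56 CPM against 4.04 to 7.36 CPM. For the other 4 genes it was above the other 3 PYY libraries. For Stk40 it was at 22.0 CPM, against 11.9 to 14.6 CPM. Mrpl1, a mitochondrial ribosome gene, had 14.9, 14.0, 14.2, 14.2 and 14.6 CPM with semaglutide and 4.54, 2.68, 6.68 and 12.4 CPM with PYY. Its log2 fold change was 1.63 without A220 (edgeR adjusted p = 0.00664) and 1.12 with it (adjusted p = 0.108). Odc1, ornithine decarboxylase, was at 92.2 CPM in A220, against 20.9 to 32.9 CPM in the other PYY libraries (1.46 without A220, adjusted p = 0.00931; 0.78 with it, adjusted p = 0.259). Fgf1, a growth factor gene, was at 57.5 CPM in A220, above every other of the 9 libraries (2.0 without A220, adjusted p = 0.0126; 0.24 with it, adjusted p = 0.884). When A220 was left out and the muscle level was a covariate, 14 genes were called, 13 lower and 1 higher. The 13 were Ecm2, Ddr2, Col15a1, Zfp521, Fbn1, C1s, Ahnak, Htra1, Abi3bp, Ptgfrn, Col6a1, Ssc5d and Col4a1, with log2 fold changes from -4.06 (Abi3bp) to -1.25 (Ahnak), and the 1 was Ncf1, a subunit gene of the phagocyte NADPH oxidase, at 2.4. Ecm2 and Abi3bp encode matrix proteins, C1s a complement protease, Htra1 a secreted protease, Ssc5d a secreted scavenger receptor and Ahnak a large scaffold protein. This fit was added after the values had been seen.

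**Figure D5:**
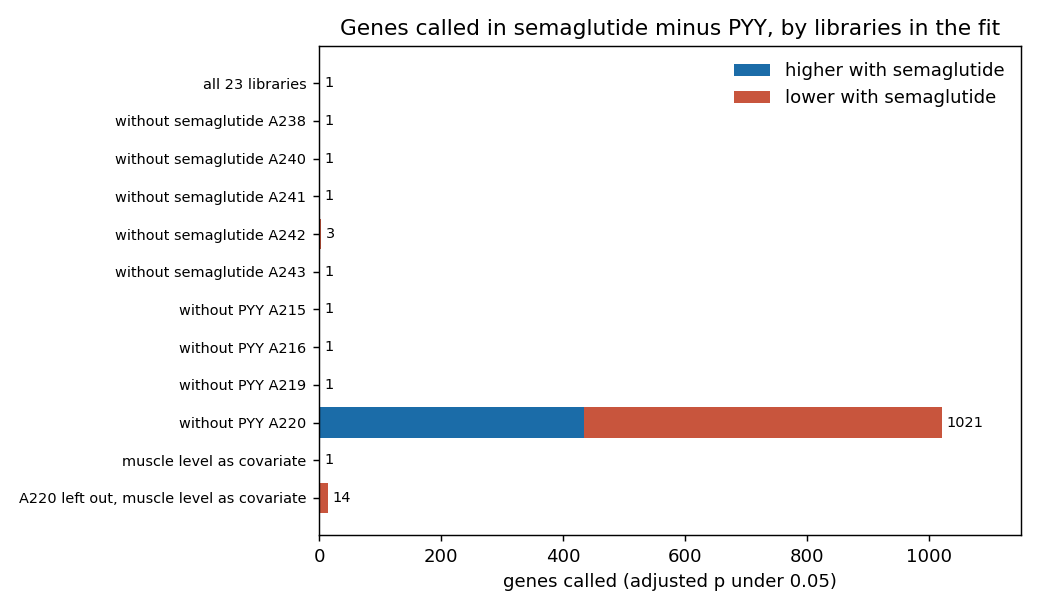
Number of genes called at an edgeR adjusted p under 0.05 in semaglutide minus PYY, by which libraries entered the fit and whether the muscle level was a covariate. Bars are split into genes higher and lower with semaglutide. The fit without PYY A220 calls 1021 genes, against 1 with all 23 libraries.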

How the data were processed

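Polyadenylated RNA of rat femora was sequenced, 1 library per labelled sample. The authors deposited raw counts per Ensembl gene for 30562 genes and FPKM values; FPKM was used only for levels per length. The submitters' processing notes name the build mRatBN7.2 and DESeq2 1.42.0. Aligner and counter: not given in the sources used here. Stranded and unstranded preparation are both described in the labels' protocol, with no word on which was used, so counts of overlapping, antisense and near-identical genes are uncertain. Counts were tested in R 4.3.3 with edgeR 4.0.16 (TMM, filterByExpr by group, robust quasi-likelihood F-test, 18 residual degrees of freedom). The fit was checked on simulated counts with less spread between libraries than the data. The common coefficient of variation of the data was 69.9%, so the check does not cover that spread. Called means a Benjamini-Hochberg adjusted p under 0.05 over 15271 genes. Values marked SE are log2 fold changes, of semaglutide over PYY unless another contrast is named. CPM were TMM-scaled, and list levels used a prior count of 2. Chi-square per degree of freedom within the 2 groups was at least 47.5, so no libraries were duplicates. Alternatives were other normalizations and filters, DESeq2 1.42.0, limma 3.58.1 voom, the 9 libraries alone, no mitochondrially encoded genes, a muscle covariate and leaving out each library.

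The members and the 42 gene lists were chosen with earlier results of these data known; of 807 list entries, 789 matched a current symbol, 3 matched an older one, 15 matched none, and 754 were tested. Genes were named by rule: those called or of smallest p in each direction (up to 6 where fewer are called), the called members of each list or its 2 of smallest p, and a fixed panel. The matrix genes among the 25 of smallest p, the genes of smallest p without A220 and those called in its fit with the muscle covariate, and Cd276, were added after values were seen. Of 8 genes looked up for promoters, 5 were in the RefSeq table.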

Additional observations from a re-analysis of the deposited data

Results flagged for a closer look

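A check for a library far from the others of its group flagged 12 of 228 values (5.26%), where chance gives about 1 in 20, or 11. The flags leave out some libraries that were far apart in CPM. Aspn in PYY A215 (214 CPM against 8.02 to 34.7 CPM in the other PYY libraries) was not among the 12. Neither was Col11a2 in PYY A216 (378 CPM against 5.45 to 12.7 CPM). PYY A220 had 37.2 M counts (M as in CPM), against 22.5 to 24.8 M in the other PYY libraries. PYY A216 had the lowest muscle list level of its group, 6.22 against 9.22 to 9.43 log2 CPM, and the lowest VEGF and hypoxia level, 2.98 against 3.58 to 3.63. Semaglutide A242 had a muscle list level of 9.13, against 10.8 to 11.2 in the other semaglutide libraries, the lowest Uqcrh, 109 against 149 to 163 CPM, and the highest Col6a3, 27.6 against 15.4 to 16.7 CPM. Semaglutide A241 had the highest osteoclast list level, 2.42 against 0.715 to 1.10, and the lowest Zfp521 (1.41 against 2.07 to 2.34 CPM), Cav1 (51.4 against 88.9 to 107 CPM) and Nos3 (4.8 against 8.14 to 9.62 CPM). Semaglutide A243 had the highest Mbd3, 36.9 against 28.4 to 29.7 CPM. Semaglutide A238 held the 1 count of Cenpm, 0.0391 CPM, and the other 4 libraries had 0.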

How the results depend on the processing

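With 5 and 4 libraries, the number of calls depended on PYY A220 and on the tool, and Ddr2 alone was called under each alternative run. Leaving out each library in turn gave 1 to 1021 called genes, 0 to 434 higher and 1 to 587 lower, with 1021 without PYY A220 and 3 without semaglutide A242 (Ddr2, Mapkapk3 and Cd276); the other 7 such fits called 1. DESeq2 called 487, 72 higher and 415 lower. Alternatives chosen after seeing the data gave 14 (1 higher, 13 lower) without A220 and with the muscle covariate, and 2431 (1289 higher, 1142 lower) without A220 by DESeq2. Reversed log2 fold changes of genes that did not pass were as follows. With the muscle covariate, Casq1 was -0.35, Ryr1 -0.04, Acadm -0.06, Sost 0.32, Tnfsf11 0.22, Col2a1 0.25, Adipoq -0.68, Acta1 -0.21, Ckm -0.39, Hbb 0.17 and Fgf1 -0.18. With A220 also left out, Casq1 was -0.64, Sost 1.16, Adipoq -1.02 and Ckm -0.54. Adipoq was -0.01 by DESeq2 without A220, -0.37 without A243 and -0.05 without A216 (at most 0.77, without A219), and Fgf1 -0.08, -0.11 and -0.12 without A215, A216 and A219 (at most 2, without A220). The muscle level itself differed between the groups, at 9.13 to 11.2 with semaglutide and 6.22 to 9.43 with PYY. A covariate for it can thus also take out part of the group difference, and the 2 cannot be told apart. For the reversals without the covariate the cause was not tested. Over the libraries left out in turn, the muscle share differed by 8.36 to 13.1 percentage points, the haemoglobin share by -2.76 to -0.748 (-1.998 with all), the mitochondrial share by -4.55 to 1.49 and the totals by -3.53 to 1.37 M. Of the values of single genes under alternatives, 1304 kept direction and side of the threshold, 186 newly passed and 21 reversed. No paired analysis was possible because the groups share no replicate numbers. Depth limits what can be said of Glp1r, Npy2r, Npy4r and Npy5r, at 0 in nearly every library.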

Other observations

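The other lists are given by their medians, beside -0.06 over all genes tested. The medians of semaglutide over PYY were -0.60 for MHC class II (11 genes tested), -0.74 for plasma cells (10), -0.65 for inflammation (15), -0.998 for marrow stroma (15), 0.42 for megakaryocytes (14) and 0.33 for the circadian clock (17). They were -0.01 for interferon response (19), 0.01 for the unfolded protein response (18), 0.00 for immediate early and heat shock genes (22), -0.07 for glucocorticoid response (14), -0.29 for the Hippo pathway (18), -0.35 for cholesterol synthesis (19) and 0.16 for ribosomal proteins (22). B cells (13) were at -0.07, T and NK cells (12) at -0.35 and mast cells and basophils (8) at -0.05. None of these lists held a called gene with all libraries. Several of these medians changed sign when 1 library was left out. Without PYY A216, plasma cells were at 0.28, T and NK cells at 0.47, B cells at 1.69 and cholesterol synthesis at 0.07. Without semaglutide A241, megakaryocytes were at -0.42 and immediate early and heat shock genes at 0.07. Mast cells were at 0.05 without semaglutide A238, interferon response at 0.11 without semaglutide A243, the unfolded protein response at -0.16 without PYY A219 and glucocorticoid response at 0.04 without PYY A215. Without PYY A216 the median shrank to -0.09 for MHC class II, -0.13 for inflammation, -0.12 for the Hippo pathway and 0.12 for the clock. Without PYY A215 it was 0.01 for ribosomal proteins.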
